A study of Mus musculus with 7 samples.

Results

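The 10 CC chemokine genes described here encode small secreted proteins that draw immune cells, and they were measured in lung CD11b+ conventional dendritic cells (cDC2s) of mice. They were taken by name (Ccl2, Ccl3, Ccl4, Ccl5, Ccl6, Ccl7, Ccl9, Ccl12, Ccl17 and Ccl22) out of 19939 genes tested. Each had 1 probeset of its own on the array, so no choice between probesets was needed. The study used 7 arrays in 3 groups, all from female C57Bl/6 mice and each holding RNA from a pool of 10 mice. In 3 pools the mice were Irf3-deficient and had received 100 µg of house dust mite extract. In 2 pools the mice were wild type and had received the same dose of extract, and in 2 pools they were wild type and had received the PBS excipient. Cells were taken 12 hours after treatment and sorted as Cd11c+ Mhc2+ Cd11b+ Ly6c- Cd64-. A PBS-treated Irf3-deficient group was not analysed here. Treated Irf3-deficient against untreated wild type cells therefore differ in genotype and treatment at once. A genotype difference already present without the extract cannot be told apart from one that follows it. The labels do not say how the Irf3 allele was made.

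CC chemokines carry a pair of adjacent cysteines near the amino end and signal through G protein-coupled receptors on leukocytes, along gradients that guide cells into tissue. CCL17 and CCL22 act on CCR4, found on T helper 2 and regulatory T cells, and are typical products of dendritic cells in allergic airways. CCL3, CCL4 and CCL5 are inflammatory chemokines that attract effector T cells, natural killer cells and myeloid cells. Mouse CCL6 and CCL9 are CCR1 ligands made steadily by myeloid cells, and CCL2, CCL7 and mouse CCL12 act on CCR2, the receptor that brings in monocytes. IRF3 is a transcription factor that starts type I interferon and a set of other genes, among them Ccl5, downstream of innate sensors.

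The values are log2 expression levels, so a difference of 1 is a doubling, and a gene "rose" or "fell", or was "higher" or "lower", only where its adjusted p-value in the limma fit over all genes was under 0.05. Pearson's r across genes was 0.995 to 0.997 between arrays within a group and 0.973 to 0.99 between groups, and genes are not independent replicates. Irf3 stood at 8.26, 8.13 and 8.30 in the Irf3-deficient arrays, 9.59 and 9.57 in treated wild type arrays, and 9.48 and 9.56 in untreated wild type arrays, as labelled. Of the markers used in the sort, H2-Ab1 stayed between 14.14 and 14.29 in all arrays and Itgax between 12.63 and 13.06, with Itgax higher by 0.31 in Irf3-deficient than in wild type cells after treatment (adjusted p = 0.0179). Itgam, which encodes CD11b, stood at 11.74, 11.81 and 11.64 in Irf3-deficient arrays, 10.92 and 11.10 in treated wild type arrays and 12.11 and 12.02 in untreated wild type arrays. It fell by 1.06 in treated wild type (adjusted p = 1.94e-05), was higher by 0.72 in Irf3-deficient than in wild type cells after treatment (adjusted p = 0.000225), and was lower in treated Irf3-deficient than in untreated wild type cells, at -0.34 (adjusted p = 0.0443). Fcgr1, which encodes CD64 and should be low in the gate, stood at 8.99 to 9.27 in Irf3-deficient arrays, 10.61 and 10.99 in treated wild type arrays and 8.72 and 9.30 in untreated wild type arrays. It rose by 1.79 in treated wild type (adjusted p = 2.19e-05). Between the treated genotypes it was lower without Irf3, at -1.67 (adjusted p = 2.23e-05). Ly6c1 and Ly6c2 had no probeset of their own, so the Ly6C part of the gate was not checked. The number of arrays, 2 or 3 a group, limits the precision of every value. The RNA came from many cells at once, so a change in the share of cells that make a chemokine cannot be told apart from a change in its level per cell.

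In wild type cDC2s the extract moved these genes both ways: Ccl4, Ccl5 and Ccl22 rose, and Ccl6 and Ccl9 fell. That is 5 of 10, against 17.6% of all genes called in that comparison (3 higher against 8.35%, 2 lower against 9.23%). Without Irf3, treated cDC2s had lower Ccl4 and Ccl5 and higher Ccl2, Ccl6, Ccl7 and Ccl9 than treated wild type cDC2s, which is 6 of 10 against 19.7% of all genes (4 higher against 10.7%, 2 lower against 9%). Set against untreated wild type, treated Irf3-deficient cDC2s had higher Ccl2, Ccl7, Ccl17 and Ccl22 and lower Ccl4, which is 5 of 10 against 10.8% of all genes (4 higher against 5.89%, 1 lower against 4.9%). Bright genes were called more often. Among the 9969 brighter genes tested alone, which hold 9 of these 10, the shares called were 34%, 39.6% and 23.1% in the same comparisons. The median log2 difference of the 10 genes was 0.23, 0.08 and 0.20 in these comparisons, in the same order, and that of all genes was 0.03, 0.00 and 0.04. By functional group, the T helper 2 attractants (2 genes) had medians of 0.33, 0.08 and 0.41, the inflammatory chemokines (5 genes) 0.27, -0.11 and -0.01, and the monocyte attractants (3 genes) -0.47, 1.15 and 0.66. The inflammatory group held opposite movements, with 2 genes higher and 2 lower in each of the first and second comparisons. The monocyte group had 0 genes called in wild type and 2 higher in each of the others. The comparisons share arrays: the treated wild type arrays enter the first and the second with opposite signs, and the untreated wild type arrays enter the first and the third.

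**Figure D1:**
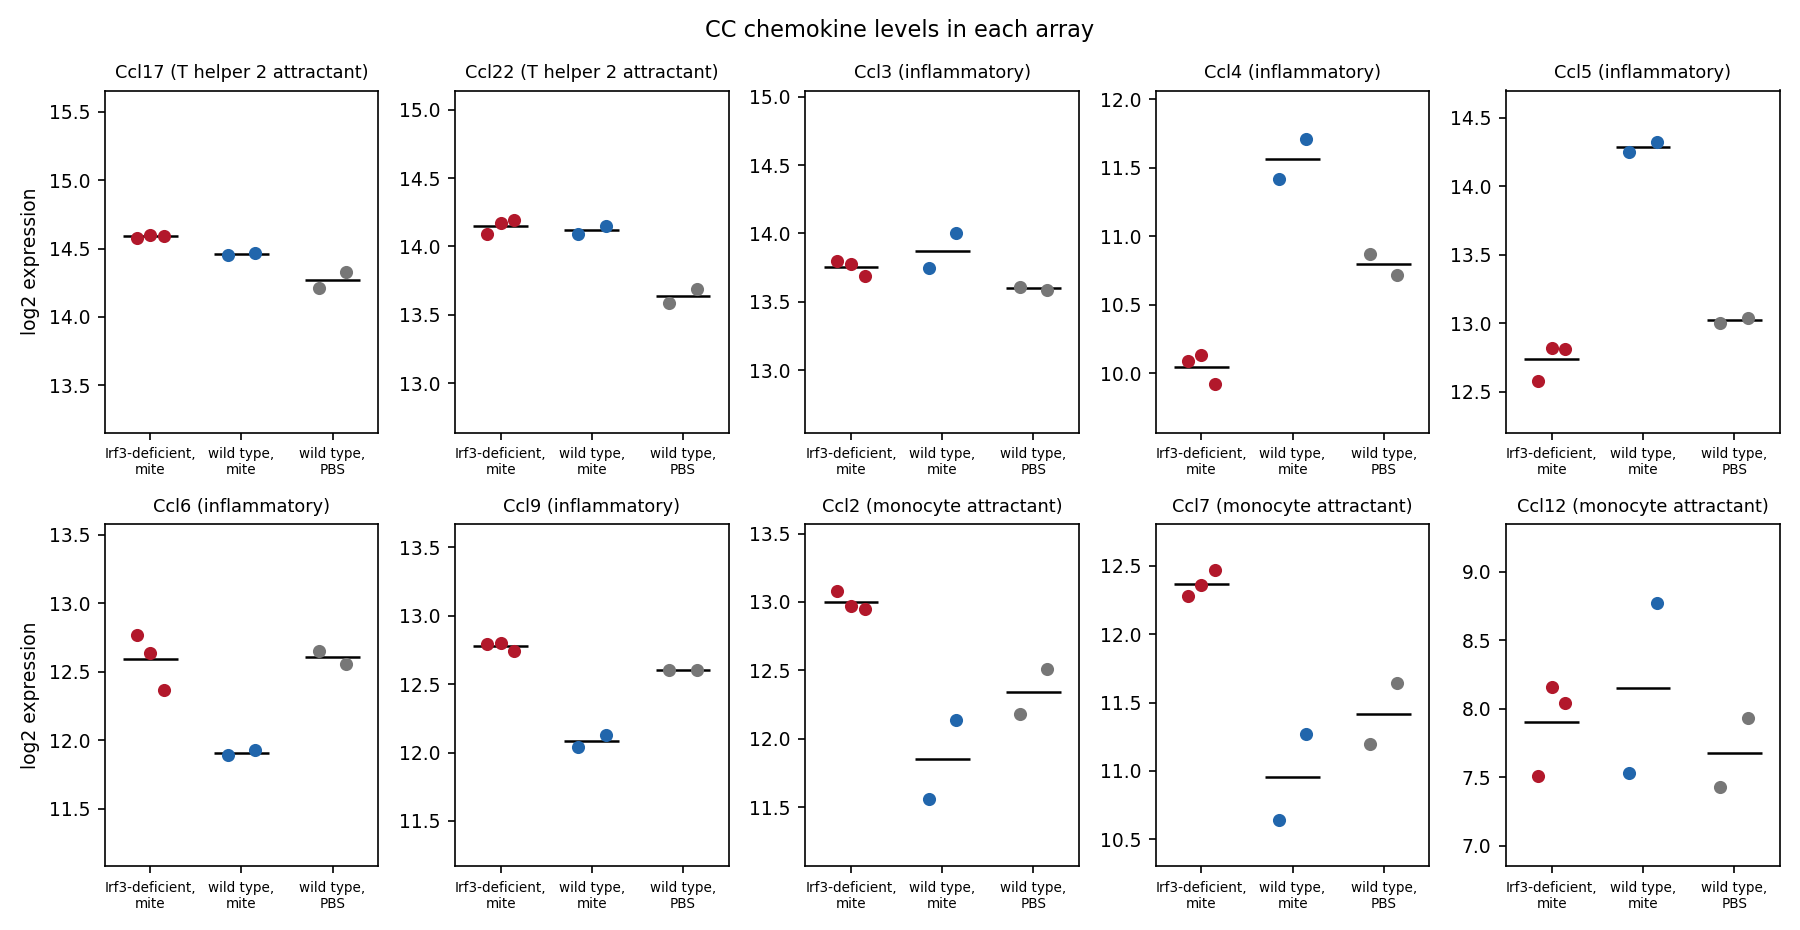
Log2 expression of the 10 CC chemokine genes, 1 panel per gene, in Irf3-deficient mite-treated, wild type mite-treated and wild type PBS-treated cDC2s. Each point is 1 array (a pool of 10 mice), the bar is the group mean, and every vertical axis spans 2.5 log2 units at its own height. Ccl4 and Ccl5 peak in treated wild type, Ccl6 and Ccl9 are lowest there, Ccl2 and Ccl7 are highest in Irf3-deficient cells, and the arrays of Ccl12 overlap in all groups.

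The T helper 2 attractants were high in every array, and neither differed between the treated genotypes beyond the threshold. Ccl22, the CCR4 ligand also known as macrophage-derived chemokine, stood at 14.09, 14.17 and 14.19 in Irf3-deficient arrays, at 14.09 and 14.15 in treated wild type arrays and at 13.59 and 13.69 in untreated wild type arrays. Both treated groups lay above the untreated one and overlapped each other. Ccl22 rose 1.39-fold in wild type (95% CI 1.25 to 1.56, adjusted p = 0.000578) and was 1.42-fold higher in treated Irf3-deficient than in untreated wild type cells (1.29 to 1.58, adjusted p = 0.000519). Between the treated genotypes its log2 difference was 0.03 ± 0.07 (SE, 95% CI -0.12 to 0.18, adjusted p = 0.857), so a difference in either direction of more than 0.18 lies outside the interval.

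Ccl17, the other CCR4 ligand, stood at 14.58, 14.60 and 14.59 in Irf3-deficient arrays, at 14.45 and 14.47 in treated wild type arrays and at 14.21 and 14.33 in untreated wild type arrays. The 3 groups did not overlap and ran in that order, but the steps between neighbouring groups did not pass. The log2 difference was 0.18 in wild type (95% CI 0.04 to 0.33, adjusted p = 0.0872) and 0.13 between the treated genotypes (adjusted p = 0.181). Across both steps, treated Irf3-deficient cells had 1.24-fold more Ccl17 than untreated wild type cells (95% CI 1.13 to 1.36, adjusted p = 0.00612). That call rests on replicate 1 of untreated wild type, without which the log2 difference was 0.25 (adjusted p = 0.1). The highest Ccl17 value lay 0.17 log2 units below the highest value of any gene tested, and those of Ccl5 and Ccl22 lay 0.44 and 0.57 below it. Whether the top of the scale compresses the differences of such bright genes was not tested.

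Ccl22 and Ccl17 are neighbours on chromosome 8, separated only by Cx3cl1 among the genes measured. RefSeq (GRCm38.p6) gives their promoter windows of 300 bases around the start, most of them upstream, printed here because neither gene of the pair passed between the treated genotypes. Capitals mark matches to a STAT6-type palindrome, TTC and GAA with any 4 bases between, and to the core of the PU.1 site, GAGGAA; STAT6 carries the interleukin 4 signal and PU.1 is a myeloid factor. The window of Ccl17 spans chr8:94810203-94810502 on the plus strand and that of Ccl22 chr8:94745434-94745733 on the plus strand.
Ccl17: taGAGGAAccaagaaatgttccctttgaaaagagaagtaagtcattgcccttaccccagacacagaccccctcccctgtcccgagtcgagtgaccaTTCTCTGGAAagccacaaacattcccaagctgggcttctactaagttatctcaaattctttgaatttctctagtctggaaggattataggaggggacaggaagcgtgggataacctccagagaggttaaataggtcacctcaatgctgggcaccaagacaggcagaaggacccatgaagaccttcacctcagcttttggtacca
Ccl22: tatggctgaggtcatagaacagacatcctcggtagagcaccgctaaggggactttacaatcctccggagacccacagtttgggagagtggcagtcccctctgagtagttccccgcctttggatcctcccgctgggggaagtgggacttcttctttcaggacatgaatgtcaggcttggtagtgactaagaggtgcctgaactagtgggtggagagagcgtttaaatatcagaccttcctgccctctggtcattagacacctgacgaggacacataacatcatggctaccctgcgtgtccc
The Ccl17 window holds TTCTCTGGAA from base -154 to -145 before the start and GAGGAA from -248 to -243, while no searched motif matched in the Ccl22 window. Windows for 6 of the 10 genes were in the table (Ccl3, Ccl6, Ccl9, Ccl12, Ccl17 and Ccl22), and Ccl2, Ccl4, Ccl5 and Ccl7 were not matched. On both strands, the STAT6-type letters occur in 1 of these 6 windows and in 6.95% of all 32851 windows, and the PU.1 core in 3 of 6 (Ccl3, Ccl12 and Ccl17) and 28.3%. The interferon-stimulated response element, GAAA and GAAA with any 2 bases between, occurs in 0 of 6 and 3.44%, and the NF-kB consensus in 1 of 6 (Ccl9) and 8.46%. The matches did not overlap each other, and such a match describes letters in a window, not a bound site.

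Among the inflammatory chemokines, Ccl5 and Ccl4 differed between the treated genotypes and Ccl3 did not pass. Ccl5, also known as RANTES, stood at 12.58, 12.82 and 12.81 in Irf3-deficient arrays, at 14.25 and 14.32 in treated wild type arrays and at 13 and 13.04 in untreated wild type arrays. The treated wild type arrays stood apart from all others, and the Irf3-deficient arrays lay just below the untreated ones. Ccl5 rose 2.40-fold in wild type (95% CI 2.08 to 2.77, adjusted p = 1.38e-06) and was 2.92-fold lower in Irf3-deficient than in wild type cells after treatment (2.56 to 3.33, adjusted p = 1.56e-07). Against untreated wild type, the treated Irf3-deficient cells differed by -0.28 on the log2 scale (95% CI -0.47 to -0.09, adjusted p = 0.0587).

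Ccl4, also known as MIP-1 beta, stood at 10.09, 10.13 and 9.92 in Irf3-deficient arrays, at 11.42 and 11.71 in treated wild type arrays and at 10.87 and 10.72 in untreated wild type arrays. No groups overlapped, and the Irf3-deficient arrays were the lowest. Ccl4 rose 1.70-fold in wild type (95% CI 1.40 to 2.07, adjusted p = 0.00117) and was 2.87-fold lower in Irf3-deficient than in wild type cells after treatment (2.40 to 3.43, adjusted p = 2.23e-06). Unlike Ccl5, it also passed below the untreated wild type level, by 1.68-fold (1.41 to 2.01, adjusted p = 0.00165).

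Ccl3, also known as MIP-1 alpha and a neighbour of Ccl4, stood at 13.80, 13.78 and 13.69 in Irf3-deficient arrays, at 13.75 and 14.00 in treated wild type arrays and at 13.61 and 13.59 in untreated wild type arrays. The treated groups overlapped and both lay above the untreated one. Between the treated genotypes its log2 difference was -0.11 (95% CI -0.29 to 0.06, adjusted p = 0.423), an interval that does not reach that of Ccl4, -1.78 to -1.26. The highest Ccl3 value lay 0.76 log2 units below the highest value of any gene tested, and that of Ccl4 3.05 below it. Compression of Ccl3 differences near the top of the scale was not tested. In wild type the difference of 0.27 (95% CI 0.08 to 0.47) narrowly missed the threshold at adjusted p = 0.0513. It passed without replicate 1 of treated wild type, at 0.40 (adjusted p = 0.0099), and without replicate 1 of Irf3-deficient, at 0.27 (adjusted p = 0.0439), but was 0.15 without replicate 2 of treated wild type (adjusted p = 0.381).

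T and natural killer cells also make Ccl3, Ccl4 and Ccl5, and the values of their markers moved in part with these genes. Of 13 T and NK cell markers measured, 6 were lower and 2 higher in Irf3-deficient than in wild type cells after treatment. The shares of all genes there were 9% and 10.7%. In treated against untreated wild type 5 rose and 1 fell, against 8.35% and 9.23% of all genes. The summed linear level of the list was 1983 to 2277 in Irf3-deficient arrays, 2533 to 2586 in treated wild type arrays and 2159 to 2340 in untreated wild type arrays. The defining T cell genes Cd3e, Cd3g and Cd3d differed by -0.11, -0.03 and -0.11 in wild type and by -0.01, 0.11 and 0.01 between the treated genotypes, and 0 of them passed in either comparison. Among those lower without Irf3 were Cd8a, at -1.02, and the granzyme gene Gzmb, at -1.13 (adjusted p = 5.24e-05 and adjusted p = 1.63e-05). The part of such cells in the levels of Ccl4 and Ccl5 was not tested.

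**Figure D2:**
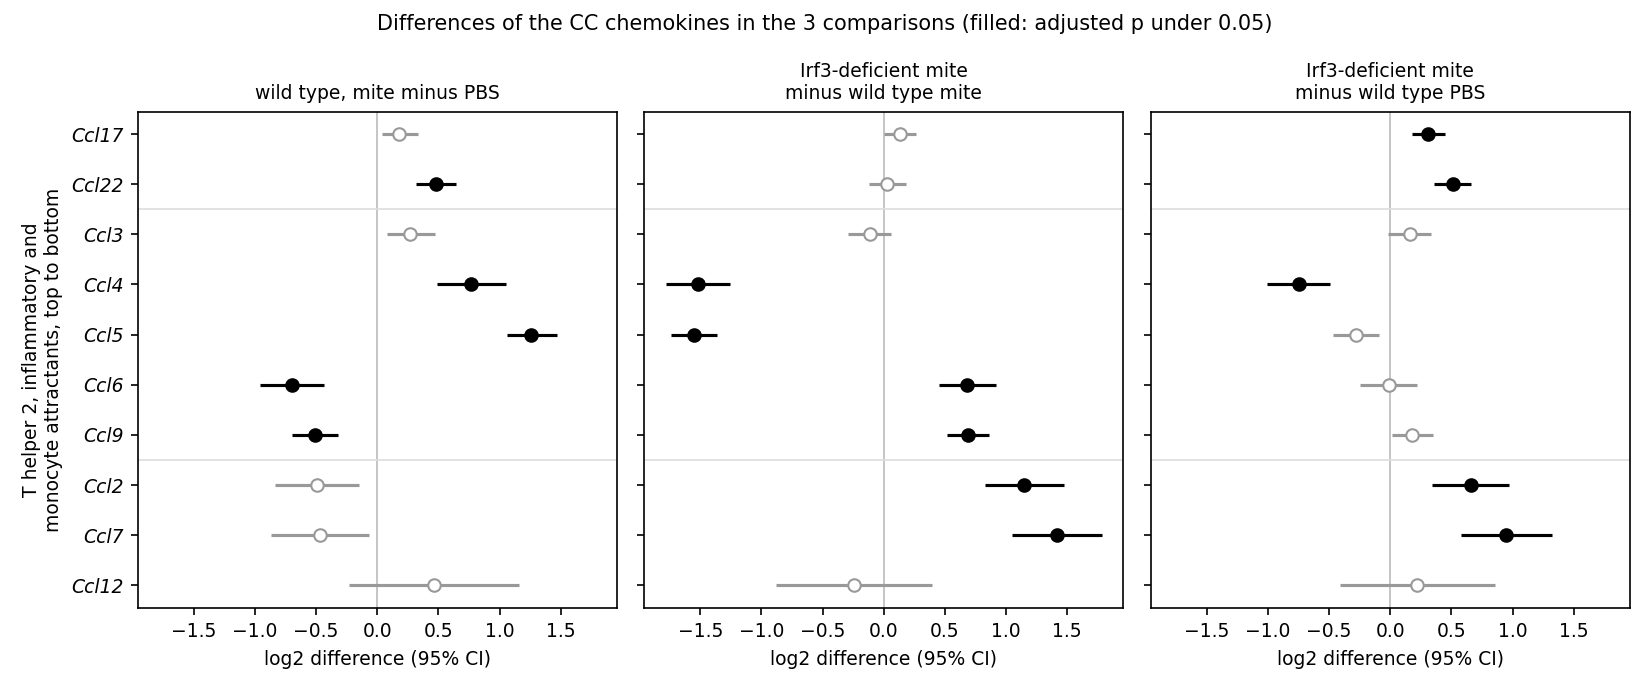
Log2 differences of the 10 genes (points) with their 95% confidence intervals (lines) from the limma fit, in wild type cells treated with mite extract minus PBS, in treated Irf3-deficient minus treated wild type cells, and in treated Irf3-deficient minus untreated wild type cells. Filled points passed an adjusted p-value of 0.05. In the middle panel Ccl4 and Ccl5 lie near -1.5 and Ccl2 and Ccl7 above 1, with Ccl17, Ccl22, Ccl3 and Ccl12 open around 0.

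The CCR1 ligands Ccl6 and Ccl9 moved the opposite way to Ccl4 and Ccl5. Ccl9, also known as MIP-1 gamma, stood at 12.79, 12.80 and 12.74 in Irf3-deficient arrays, at 12.04 and 12.13 in treated wild type arrays and at 12.60 in both untreated wild type arrays. The treated wild type arrays were the lowest, with no overlap. Ccl9 was 1.43-fold lower in treated than in untreated wild type (95% CI 1.25 to 1.62, adjusted p = 0.00116) and 1.61-fold higher in Irf3-deficient than in wild type cells after treatment (1.43 to 1.82, adjusted p = 5.92e-05). Its log2 difference between treated Irf3-deficient and untreated wild type cells was 0.18 (95% CI 0.01 to 0.35, adjusted p = 0.195).

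Ccl6, also known as C10, stood at 12.77, 12.64 and 12.37 in Irf3-deficient arrays, at 11.89 and 11.93 in treated wild type arrays and at 12.65 and 12.56 in untreated wild type arrays. Here too only the treated wild type arrays stood apart, while the other groups overlapped. Ccl6 was 1.62-fold lower in treated than in untreated wild type (95% CI 1.35 to 1.94, adjusted p = 0.00128) and 1.61-fold higher in Irf3-deficient than in wild type cells after treatment (1.36 to 1.89, adjusted p = 0.00071). Treated Irf3-deficient and untreated wild type cells differed by -0.01 (95% CI -0.25 to 0.22, adjusted p = 0.966).

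Ccl6 and Ccl9 lie side by side in the chromosome 11 cluster that also holds Ccl5, Ccl3 and Ccl4, and the RefSeq promoter windows of the pair resemble each other near the start. They are printed because these genes fell together in treated wild type cells and were higher together without Irf3. Capitals mark the stretch that a local alignment matched between them. The window of Ccl6 spans chr11:83593038-83593337 and that of Ccl9 chr11:83578587-83578886, both on the minus strand of GRCm38.p6.
Ccl6: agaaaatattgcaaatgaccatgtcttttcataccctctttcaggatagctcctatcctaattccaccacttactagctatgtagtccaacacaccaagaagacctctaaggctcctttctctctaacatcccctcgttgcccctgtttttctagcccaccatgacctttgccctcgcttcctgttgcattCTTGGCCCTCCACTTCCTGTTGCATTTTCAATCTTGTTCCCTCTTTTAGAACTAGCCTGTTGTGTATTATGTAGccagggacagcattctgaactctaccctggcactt
Ccl9: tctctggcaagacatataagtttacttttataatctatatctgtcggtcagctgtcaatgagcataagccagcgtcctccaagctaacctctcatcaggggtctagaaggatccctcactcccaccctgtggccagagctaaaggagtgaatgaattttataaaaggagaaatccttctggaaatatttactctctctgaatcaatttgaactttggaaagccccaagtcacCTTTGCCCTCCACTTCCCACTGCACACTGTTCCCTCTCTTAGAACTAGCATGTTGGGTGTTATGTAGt
In that stretch 59 of 74 aligned positions were identical (79.7%), from base -59 to base 15 of Ccl6 and from base -18 to base 49 of Ccl9, counted from the start. Among the 15 pairs of the 6 windows this pair had the highest alignment score, 71, and the next pair scored 22. The NF-kB match of Ccl9, GGAAAGCCCC, lies from -35 to -26, outside the stretch.

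The monocyte attractants Ccl2 and Ccl7 were highest in Irf3-deficient cells, above both wild type groups. Ccl7, also known as MCP-3, stood at 12.28, 12.36 and 12.47 in Irf3-deficient arrays, at 10.64 and 11.27 in treated wild type arrays and at 11.20 and 11.64 in untreated wild type arrays. The Irf3-deficient arrays stood clear of the rest, and the wild type groups overlapped. Ccl7 was 2.67-fold higher in Irf3-deficient than in wild type cells after treatment (95% CI 2.07 to 3.44, adjusted p = 7.9e-05) and 1.93-fold higher than in untreated wild type (1.5 to 2.49, adjusted p = 0.00335). Without replicate 1 of untreated wild type, the log2 difference from untreated wild type was 0.73 (adjusted p = 0.0796), against 0.95 with it. Between the wild type groups the log2 difference was -0.47 (95% CI -0.87 to -0.07, adjusted p = 0.113), and it depended on single arrays. It was -0.78 without replicate 2 of treated wild type (adjusted p = 0.0065), -0.15 without replicate 1 (adjusted p = 0.667) and -0.25 without replicate 2 of untreated wild type (adjusted p = 0.491).

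Ccl2, also known as MCP-1 and the main CCR2 ligand, stood at 13.08, 12.97 and 12.95 in Irf3-deficient arrays, at 11.56 and 12.14 in treated wild type arrays and at 12.18 and 12.51 in untreated wild type arrays. The 3 groups did not overlap, with the Irf3-deficient arrays at the top and the treated wild type arrays at the bottom. Ccl2 was 2.22-fold higher in Irf3-deficient than in wild type cells after treatment (95% CI 1.78 to 2.77, adjusted p = 0.000138) and 1.58-fold higher than in untreated wild type (1.26 to 1.96, adjusted p = 0.0127). The second of these calls was lost without replicate 1 of untreated wild type, at a log2 difference of 0.49 (adjusted p = 0.193), and when p-values were adjusted over all probesets (adjusted p = 0.0701). Between the wild type groups the difference of -0.49 (95% CI -0.84 to -0.15) missed the threshold at adjusted p = 0.0519. It passed without replicate 2 of treated wild type, at -0.78 (adjusted p = 0.00164), and without replicate 1 of Irf3-deficient, at -0.49 (adjusted p = 0.0447). It was -0.20 without replicate 1 of treated wild type (adjusted p = 0.403) and -0.33 without replicate 2 of untreated wild type (adjusted p = 0.301).

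Ccl12, also known as MCP-5 and the remaining CCR2 ligand, varied most within groups of the 10 genes, and its mean level lay at the 49.8 percentile of all genes. It stood at 7.51, 8.16 and 8.04 in Irf3-deficient arrays, at 7.53 and 8.77 in treated wild type arrays and at 7.43 and 7.93 in untreated wild type arrays. All groups overlapped, and the treated wild type arrays alone spanned 1.24 log2 units. None of its 3 differences passed: 0.46 in wild type (95% CI -0.23 to 1.16, adjusted p = 0.402), -0.24 between the treated genotypes (-0.88 to 0.39, adjusted p = 0.69) and 0.22 against untreated wild type (-0.41 to 0.86, adjusted p = 0.726). Without replicate 1 of treated wild type the first became 1.08 (adjusted p = 0.00884) and the second -0.86 (adjusted p = 0.0221). Without replicate 2 both turned sign, to -0.16 (adjusted p = 0.777) and 0.38 (adjusted p = 0.386), so they rest on which of the disagreeing arrays is kept.

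Macrophages and monocytes are strong sources of Ccl2, Ccl6, Ccl7, Ccl9 and Ccl12, and the CD64- Ly6C- gate should leave them out. Of 18 monocyte and interstitial macrophage markers measured, 17 fell and 0 rose in treated wild type, against 9.23% and 8.35% of all genes. In Irf3-deficient against wild type cells after treatment 14 were higher and 1 lower, against 10.7% and 9%. Against untreated wild type, 0 were higher and 5 lower in treated Irf3-deficient cells, beside 5.89% and 4.9% of all genes. The summed linear level of the list was 53818 to 55759 in Irf3-deficient arrays, 20931 and 30173 in treated wild type arrays and 64672 and 77185 in untreated wild type arrays. Treated wild type was lowest, as for Ccl6 and Ccl9, but the Irf3-deficient arrays lay below the untreated ones, whereas Ccl2 and Ccl7 lay above them. The macrophage genes Adgre1, Cd163 and Mrc1 fell by 2.05, 1.88 and 1.75 in treated wild type and were higher by 1.17, 0.98 and 1.26 in Irf3-deficient than in wild type cells after treatment. Against untreated wild type they were lower in treated Irf3-deficient cells, at -0.88, -0.90 and -0.49. The complement gene C1qb had the highest value of the list in that last comparison, 0.32 (adjusted p = 0.392), and Apoe the lowest, -3.03, against a list median of -0.41. Fcgr1, the CD64 gene outside this list, moved the other way: 1.79 in treated wild type and -1.67 between the treated genotypes. The part of macrophage-type cells in these results was not tested.

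**Figure D3:**
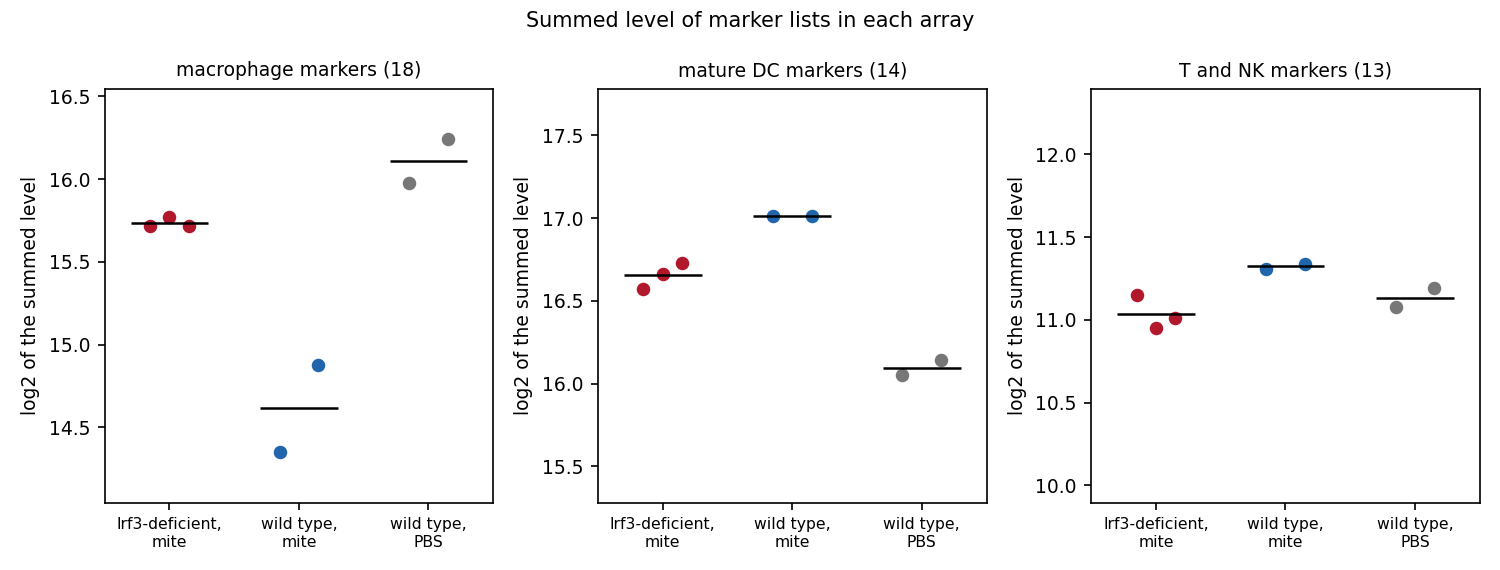
Log2 of the summed linear level of 3 marker lists in each array: 18 monocyte and interstitial macrophage markers, 14 mature dendritic cell markers, and 13 T and NK cell markers, in Irf3-deficient mite-treated, wild type mite-treated and wild type PBS-treated cDC2s. Points are arrays, bars are group means, and each axis spans 2.5 log2 units. The macrophage list is lowest in treated wild type, between 14.35 and 14.88, and the mature dendritic cell list is highest there, at 17.01 in both arrays.

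Ccl17 and Ccl22 are also products of mature dendritic cells, so the maturation markers bear on them. Of 14 mature dendritic cell markers, 13 rose and 0 fell in treated wild type, against 8.35% and 9.23% of all genes. In Irf3-deficient against wild type cells after treatment 11 were lower and 0 higher, against 9% and 10.7%. Against untreated wild type, 11 were higher and 0 lower in treated Irf3-deficient cells, beside 5.89% and 4.9% of all genes. Among those lower without Irf3, the interleukin 15 receptor chain Il15ra differed by -1.70, the OX40 gene Tnfrsf4 by -1.47 and Cd200, an inhibitory ligand, by -0.96. The 3 that did not pass between the treated genotypes were Cd83, at 0.00 (adjusted p = 0.996), Ccr7 and Cd80. Ccr7, the receptor that takes dendritic cells to lymph nodes, showed a log2 difference of -0.10 between the treated genotypes (adjusted p = 0.336), and Cd80, a costimulatory ligand, one of -0.01 (adjusted p = 0.958). By the pattern over the 7 arrays, Cd80 was the nearest of 3726 compared genes to Ccl22, at a root-mean-square distance of 0.03 log2 units after centring, followed by Txndc9 at 0.04 and Hivep1 at 0.06. The same measure over 906 genes with a wider range placed Uba7, which encodes the activating enzyme for ISG15, nearest to Ccl5 at 0.10, and Pnp and Il21r followed at 0.11 each. Nearest to Ccl7 were Il1a, the gene of interleukin 1 alpha, at 0.14, Gpr84 at 0.15 and Clec4d at 0.16. All genes share the same arrays, and the distances describe likeness only.

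Of the other CC chemokines, 9 of 11 had a probeset of their own. In treated wild type 3 of these 9 rose and 0 fell, against 8.35% of all genes higher and 9.23% lower. Ccl11, the eotaxin gene that lies between Ccl7 and Ccl12, rose by 0.61 ± 0.14 on the log2 scale in treated wild type (SE, adjusted p = 0.00816). Ccl8, the gene beyond Ccl12, rose by 0.52 (adjusted p = 0.0133), and Ccl19, a CCR7 ligand, by 0.39 (adjusted p = 0.0445). Between the treated genotypes 1 was higher and 1 lower, against 10.7% and 9% of all genes. Ccl8 was lower without Irf3, at -0.61 (adjusted p = 0.00257), the opposite direction to its brighter neighbours Ccl2 and Ccl7. The Ccl8 signal was low, however: its values ran from 6.34 to 7.16, under the array medians of 7.6 to 7.69. Whether so low a signal reflects expression of Ccl8 was not tested. Ccl24 was higher by 0.79 (adjusted p = 0.0334), with Irf3-deficient arrays at 8.75, 8.53 and 9.42 and treated wild type arrays at 7.76 and 8.47. Against untreated wild type, 0 of the 9 passed in treated Irf3-deficient cells, beside 10.8% of all genes.

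**Figure D4:**
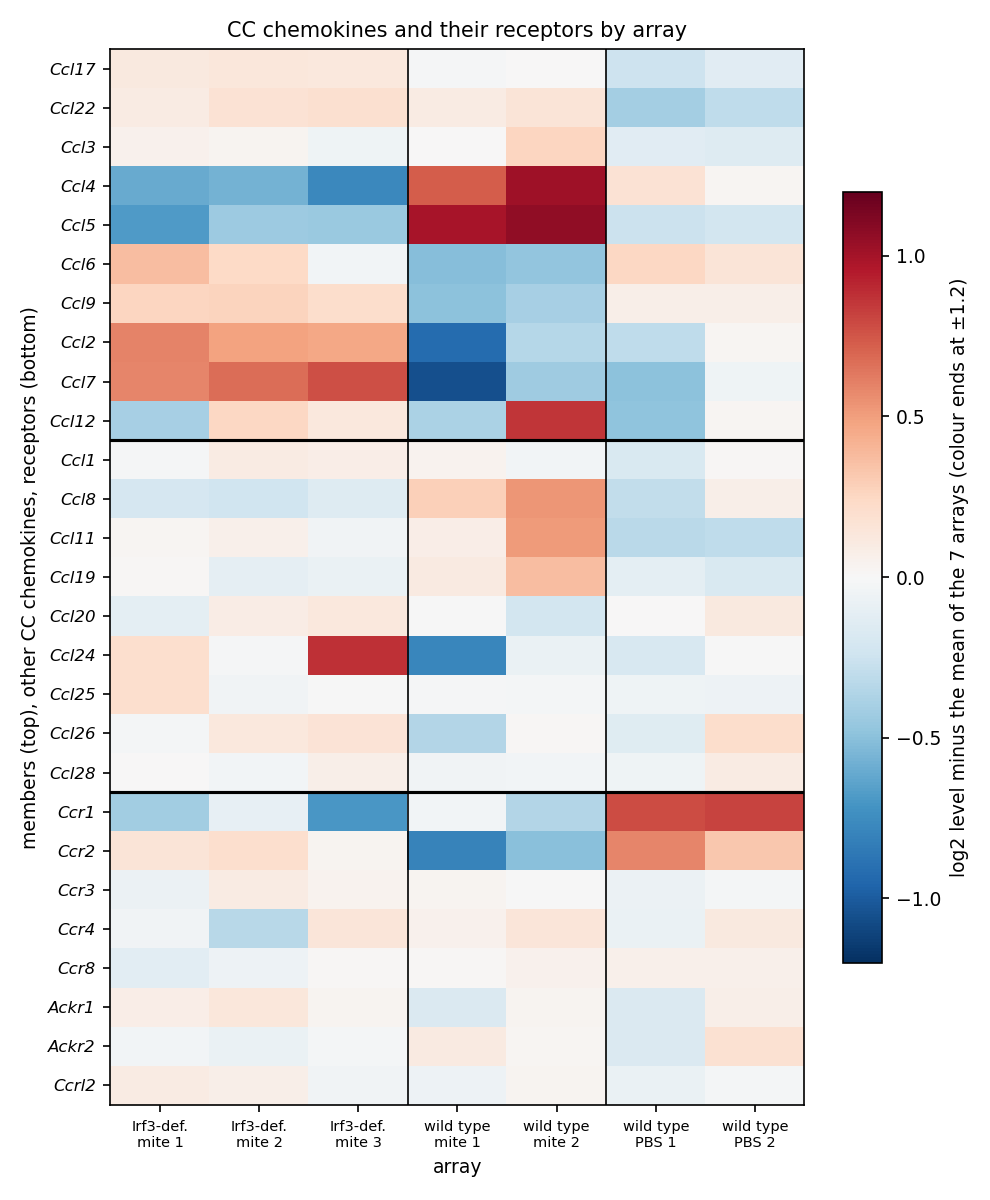
Log2 level of the 10 members (top), 9 other CC chemokines (middle) and 8 receptors (bottom), each minus its own mean over the 7 arrays, with Irf3-deficient mite arrays on the left, wild type mite arrays in the middle and wild type PBS arrays on the right. Red is above and blue below the mean, and the colours end at 1.2 log2 units in either direction. Ccl4, Ccl5 and Ccl8 are at their reddest in treated wild type, and Ccl6, Ccl9, Ccl2 and Ccr2 at their bluest. The colours do not show level, and Ccl8 lay below the median of every array.

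The receptors of these chemokines were measured in the cDC2s themselves. Of 8 receptors and scavengers, 2 fell and 0 rose in treated wild type, against 9.23% and 8.35% of all genes, and 1 was higher and 0 lower between the treated genotypes, against 10.7% and 9%. Ccr2, the receptor of Ccl2, Ccl7 and Ccl12, stood at 11.97, 12.02 and 11.85 in Irf3-deficient arrays, at 11.01 and 11.31 in treated wild type arrays and at 12.40 and 12.14 in untreated wild type arrays. It fell by 1.11 ± 0.12 on the log2 scale in treated wild type (SE, adjusted p = 4.59e-05) and was higher by 0.79 ± 0.11 in Irf3-deficient than in wild type cells after treatment (adjusted p = 0.000346). Ccr1, the receptor of Ccl3, Ccl5, Ccl6 and Ccl9, fell by 0.98 in wild type (adjusted p = 0.00152). It was lower by 1.2 in treated Irf3-deficient than in untreated wild type cells (adjusted p = 0.00051). Its difference between the treated genotypes was -0.21 (adjusted p = 0.45). Ccr4, the receptor of Ccl17 and Ccl22, stayed between 6.07 and 6.55 in all arrays, with 0 of its differences passing.

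Among transcription factors known to act at CC chemokine genes, 10 of 20 rose and 2 fell in treated wild type. In Irf3-deficient against wild type cells after treatment, 9 were lower and 1 higher. The 9 include Irf3 itself, at -1.35, whose direction the genotype fixed in advance. Beside these factor counts and the receptor counts below, 8.35% of all genes rose and 9.23% fell in treated wild type. Between the treated genotypes 10.7% of all genes were higher and 9% lower. Irf7, a factor that amplifies interferon production, rose by 4.04 in treated wild type and was lower in Irf3-deficient than in wild type cells after treatment, at -2.99 on the log2 scale, which is the direction of Ccl4 and Ccl5. Against untreated wild type, though, Irf7 was higher in treated Irf3-deficient cells, at 1.06 (adjusted p = 0.000429), where Ccl4 was -0.75 and Ccl5 -0.28. Stat6, which relays interleukin 4 to Ccl17 and Ccl22, differed by 0.20 and -0.14 (adjusted p = 0.224 and adjusted p = 0.382), and Irf4 by -0.08 and 0.31 (adjusted p = 0.719 and adjusted p = 0.0609). Jun, part of AP-1, fell by 0.43 in wild type and was higher by 0.39 in Irf3-deficient cells, the direction of Ccl6 and Ccl9. Fos, also part of AP-1, fell too, by 0.44, but did not share the second movement. Treated Irf3-deficient cells had Fos at -0.45 relative to untreated wild type, which passed. Relative to treated wild type the Fos value was -0.01, which did not pass. Of 6 factors that govern the decay or stability of chemokine transcripts, Zfp36l2 fell by 0.73 in treated wild type and was higher by 0.53 in Irf3-deficient cells, while Zfp36 differed by -0.06 and 0.04 without passing. Among 15 receptors of inducing cytokines, 1 rose and 3 fell in wild type, and 5 were higher and 0 lower between the treated genotypes, led by the interferon gamma receptor chain Ifngr1 at 0.73 and the GM-CSF receptor chain Csf2ra at 0.70. The 7 interferon reporters measured all rose in wild type and were all lower in Irf3-deficient than in wild type cells, with medians of 4.04 and -2.67. Unlike Ccl4 and Ccl5, 6 of them were higher in treated Irf3-deficient than in untreated wild type cells, against 5.89% of all genes. How any of these genes acts on the chemokines was not tested.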

How the data were processed

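Affymetrix Mouse Gene 1.0 ST arrays were hybridised with RNA of sorted lung cDC2s, per the labels. The authors deposited log2 expression values for 35556 probesets. Per the submitters' processing notes, the tools were R 3.2.1, oligo and RMA, with no roles stated; no genome build is given in the sources used here. RMA usually equalises distributions between arrays, so a change shared by most genes could not be seen. Array medians lay between 7.60 and 7.69. No detection calls and no batch labels were used.

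Probesets with 1 gene symbol in the platform annotation (21789) were kept, symbols were updated through Entrez identifiers (19856 of 19939 genes matched RefSeq, GRCm38.p6), and the brightest probeset by the mean of 7 arrays stood for each of 998 genes with several. All 7 arrays were fitted in limma 3.58.1 under R 4.3.3 with 1 mean per group and an intensity trend (4 residual and 8.34 prior degrees of freedom). Tests were two-sided, adjusted by Benjamini-Hochberg over 19939 genes, with a threshold of 0.05; intervals are 95%. Replicates are separate pools. The fit was tested on simulated data. Samples were grouped by their titles, and 16 alternatives were run.

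Members, lists and the naming rule were chosen with earlier results of these data known. The rule names all 10 members, Irf3, up to 3 called genes per direction from each list, and for the member with the widest range in each functional group the 3 genes nearest in pattern; other genes are named by their role, after their values were seen. Marker lists of other cells are counted in the closing section. Sequences are RefSeq windows (GRCm38.p6).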

Additional observations from a re-analysis of the deposited data

How the results depend on the processing

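Of 30 results for the 10 genes (each in 3 comparisons), 16 were called, and 13 of these were called in all 16 alternatives, with 0 of the 16 turning sign. Of the 14 not called, 6 turned sign in some alternative (Ccl12 in all 3 comparisons, Ccl22 and Ccl3 between the treated genotypes, and Ccl6 against untreated wild type). The calls that were lost, of Ccl2, Ccl7 and Ccl17 in treated Irf3-deficient against untreated wild type cells, and the genes that passed when 1 array was left out are given with the results. Among the 9969 brighter genes alone, which leave out Ccl12, 8 of 9 chemokines passed in wild type in place of 5 of 10, beside 34% of those genes in place of 17.6%: Ccl17 (adjusted p = 0.0359), Ccl3 (adjusted p = 0.0302) and Ccl2 (adjusted p = 0.0429) were added, and Ccl5 passed against untreated wild type (adjusted p = 0.036). Quantile normalization repeated over all probesets, before the fit of the kept genes, added Ccl2 in wild type, at -0.56 (adjusted p = 0.0402).

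Leaving out 1 array at a time gave 2333 to 3725 genes called in wild type against 3505 with all arrays. It gave 2562 to 3906 genes between the treated genotypes against 3933, and 749 to 2359 in treated Irf3-deficient against untreated wild type against 2153. Of the 10 chemokines it gave 5 to 7, 6 to 7 and 2 to 5 in the same order. The lowest counts of genes came without replicate 2 of treated wild type in the first and second, and without replicate 1 of untreated wild type in the third, where the count of chemokines was also lowest; the cause was not tested.

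Whether the replicate numbers pair the arrays could not be decided. Same-numbered wild type arrays correlated at -0.233 in their deviations from the group means, and differently numbered ones at 0.233. With 2 arrays a group the deviations mirror each other, so these values carry the same information. Same-numbered Irf3-deficient arrays correlated at 0.178 and -0.09 with untreated and at -0.031 and -0.025 with treated wild type arrays. With the replicate number as a block, 3118, 3249 and 1426 genes and 7, 6 and 5 of the chemokines passed, with Ccl2 (adjusted p = 0.0331) and Ccl7 (adjusted p = 0.0383) added in wild type. The crossed pairing, chosen after seeing the data, gave 3361, 3559 and 1592 genes.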

Other observations

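Genes that flank the chemokine runs on the chromosome were counted as well. Of all genes, 8.35% rose and 9.23% fell in treated wild type, and 10.7% were higher and 9% lower between the treated genotypes. Of the 20 measured neighbours of Ccl22 and Ccl17, 4 rose and 1 fell in treated wild type, and 3 were higher and 4 lower in Irf3-deficient than in wild type cells after treatment. Of the 20 neighbours of Ccl5, Ccl9, Ccl6, Ccl3 and Ccl4, 5 rose and 1 fell, and 2 were higher and 4 lower. Of the 20 neighbours of Ccl2, Ccl7 and Ccl12, 2 rose and 0 fell, and 3 were higher and 1 lower.

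Markers of other cells varied in number. Of all genes, 10.7% were higher and 9% lower between the treated genotypes, and 8.35% rose and 9.23% fell in treated wild type. In treated Irf3-deficient against untreated wild type cells 5.89% of all genes were higher and 4.9% lower. In Irf3-deficient against wild type cells after treatment, 6 of 12 cDC2 markers were higher and 1 lower, 2 of 8 alveolar macrophage markers were higher and 1 lower, and 1 of 7 cDC1 markers was higher and 3 lower. Of 8 neutrophil markers 1 was higher and 0 lower, of 7 B cell and plasmacytoid dendritic cell markers 1 was higher and 2 lower, and of 10 lung epithelial, endothelial and stromal markers 1 was higher and 1 lower. Of these 10, 0 rose and 6 fell in treated against untreated wild type, and 1 was higher and 6 lower in treated Irf3-deficient against untreated wild type cells. In treated against untreated wild type, 1 cDC2 marker rose and 4 fell, 1 alveolar macrophage marker rose and 3 fell, 2 cDC1 markers rose and 2 fell, 1 neutrophil marker rose and 0 fell, and 3 B cell and plasmacytoid markers rose and 0 fell. In treated Irf3-deficient against untreated wild type cells, the counts higher and lower were 1 and 1 for cDC2, 2 and 1 for alveolar macrophage, 1 and 2 for cDC1, 0 and 0 for neutrophil, and 2 and 0 for B cell and plasmacytoid markers. Of 8 mast cell, basophil and eosinophil markers 0 passed in any of the 3 comparisons. Ccr9, a CC chemokine receptor for CCL25, was higher in treated Irf3-deficient cells by 2.60 against treated and by 2.53 against untreated wild type on the log2 scale.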
